A study of Homo sapiens with 42 samples.

Results

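The comparison described here set wild-type HAP1 cells given buthionine sulfoximine (BSO) against wild-type HAP1 cells left in media alone. It used 14 of the 42 RNA-seq samples of the series, 7 with BSO and 7 in media, each a separate library, chosen by the genotype and treatment in their labels. BSO was given at 200 µM for 48 h, begun after 4 h, and the control cells received media alone over the same time. HAP1 is a near-haploid human line derived from a chronic myeloid leukaemia line, and it grows attached to the dish. The other 28 samples were HAP1 cells lacking the DNA glycosylases NEIL1, NEIL2, NEIL3 or all 3, in media or with BSO. None of the 14 wild-type samples carried a knockout. Each BSO library was named like 1 media library: 1.1, 1.3 and p1, here the unlettered pairs, and 1.1 A, 1.3 A, 1.1 B and 1.3 B, here the lettered pairs, whose labels call them biological replicates. What 1.1, 1.3 and p1 stand for is not given. Libraries that share the name 1.1 or 1.3 were treated as separate, so the 7 of each group may not be independent. The main test did not block on the pair. Its p-values rest on the scatter among these samples alone, part of which may be technical.

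Glutathione is a peptide of glutamate, cysteine and glycine and the main small thiol of the cell. Glutamate-cysteine ligase, made of the catalytic subunit GCLC and the modifier subunit GCLM, makes its first bond, and BSO blocks that enzyme, so treated cells lose glutathione. The transcription factor NRF2 (gene NFE2L2) is held for degradation by KEAP1 and escapes when oxidants or electrophiles modify KEAP1. With small MAF proteins it then drives genes of glutathione synthesis, thioredoxin, NADPH supply, quinone reduction and iron storage through antioxidant response elements. ATF4 is translated when amino acids run short or other stresses phosphorylate the initiation factor eIF2, and with C/EBP partners it drives genes of amino acid uptake, serine synthesis and tRNA charging. Glutathione also serves the lipid peroxidase GPX4, which holds back ferroptosis, a form of cell death by lipid peroxidation.

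The 14 libraries held 27209873 to 30945972 reads, recovered from the deposited normalized values. Mitochondrially encoded genes took 2.62% to 4.09% of reads in the BSO libraries and 2.17% to 2.66% in the media libraries. The first principal component held 44.8% of the variance and separated the lettered from the unlettered libraries, and the second, with 12.2%, separated the BSO from the media libraries. Within each list of markers of other cell types some genes were near 0 and others were not. Of 10 blood cell markers, PTPRC (CD45), GATA1, LYZ, CD33 and CD14 stayed at or below 9.99 in all 14 libraries, while GATA2 lay between 1469.8 and 2057 in BSO and between 1517 and 2487 in media, TAL1 between 909 and 1261 in BSO and between 995 and 1323 in media, and KIT between 321 and 525 in BSO and between 395 and 570.4 in media. Of 5 epithelial markers, the cadherin CDH1 stayed at or below 3.94, while the keratin KRT8 lay between 577 and 2047 in BSO and between 569 and 1868 in media, and KRT18 between 1583 and 2073 in BSO and between 1380.5 and 1851 in media. Of 8 mesenchymal markers, VIM (vimentin) lay between 13613 and 18849.7 in BSO and between 12426 and 16205 in media, while the collagen COL1A2 stayed at or below 2.01, COL3A1 at or below 22.6 and PDGFRB at or below 36.5. The summed level of the 10 blood cell markers in the table ran from 3112 to 3674 in BSO and from 3409 to 4157 in media, and that of the 5 epithelial markers from 2195 to 4062 in BSO and from 1991 to 3803 in media. The 8 mesenchymal markers summed to 19885 to 26730 in BSO and to 18775 to 23954 in media, and the 9 neural markers, mostly SOX2, to 29440.0 to 45409 in BSO and to 26943 to 39921 in media. These sums overlapped between BSO and media, and their part in the results below was not tested.

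Genes of the NRF2 and ATF4 programmes and of cystine uptake, lists that share some genes, were higher with BSO. Genes of cholesterol and fatty acid synthesis and several cytosolic chaperones were lower, with the counts of each group given below. The gene lists were chosen with earlier results of these data known, so their counts are descriptions and not an independent test. List counts hold called genes whether or not all 7 pairs ran the same way, unless stated. Of 14290 genes with a mean normalized value of 10 or more, 1092 were higher (7.64%) and 913 lower (6.39%) in BSO than in media at a limma adjusted p below 0.05. With the pair as a block, 1562 were higher and 1423 lower. Scaling all libraries to equal totals gave 903 higher and 1290 lower, so rises made up 41.2% of the calls, against 54.5% as deposited. The median log2 difference over all genes was -0.02 with that scaling and -0.0023 as deposited. The rises were the larger changes: 47 genes (0.329%) were called and at least 2-fold higher, and no gene (0.00%) was called and at least 2-fold lower. Of the called genes, 900 were higher (6.30%) and 718 lower (5.02%) in all 7 pairs. The genes called lower were longer, with a median summed exon length of 6694 bases against 4602.5 for those called higher. Over the tested genes with a length the median was 5060 bases. BSO values lay wholly above media values for 200 genes (1.40%) and wholly below for 71 (0.497%). In bulk samples such as these, fewer cells of a kind and less RNA per cell cannot be told apart. Below, means are given with their SD (n = 7 each), and every rise, fall or difference between BSO and media is on the log2(value + 1) scale with its SE from limma.

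Both subunits of the enzyme that BSO blocks were higher with BSO. GCLM, the modifier subunit, lay between 1464 and 1988 (median 1651) in the BSO libraries, against 1041 to 1267 (median 1154) in the media libraries, and the groups did not overlap (log2 difference of 0.54 ± 0.06 (SE), adjusted p = 9.7e-06). GCLC, the catalytic subunit, averaged 1858 ± 124 in BSO against 1639 ± 186 in media (SD, n = 7 each), with overlapping groups (log2 difference of 0.19 ± 0.05 (SE), adjusted p = 0.025). Its call ended when any of 4 libraries was left out (adjusted p of 0.051 to 0.057 without BSO p1 or 1.1 A, or media 1.3 or 1.3 B) and in the fit of all 42 libraries (adjusted p = 0.08). GSS, glutathione synthetase, which adds glycine, averaged 2245 ± 42.9 in BSO against 2029 ± 86.1 in media and rose by 0.15 ± 0.03 (adjusted p = 0.0093). In all, 3 of the 5 genes of glutathione synthesis tested were higher and none lower, with a median log2 difference of 0.15 over the 5 genes.

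Of 10 genes that supply cystine and cysteine, 8 were higher and none lower, with a median log2 difference of 0.59 against -0.0023 over all 14290 genes. On the ATF4 list described below were 4 of these 10 genes, and on the NRF2 list 2. SLC7A11, the cystine-importing subunit of system xc-, lay between 3511 and 6152 (median 4591) in the BSO libraries, against 1624 to 2893 (median 1999) in the media libraries. Every BSO library was above every media library, and the lettered pairs 1.1 A and 1.3 A changed the most (log2 difference of 1.15 ± 0.13 (SE), adjusted p = 1.2e-05). Its heavy chain SLC3A2, also the partner of other amino acid carriers, averaged 10699 ± 1399 in BSO against 7108 ± 677 in media (log2 difference 0.58 ± 0.07). CTH, cystathionine gamma-lyase, which releases cysteine from cystathionine, lay between 1642 and 3017 (median 2267) in the BSO libraries, against 795 to 1519 (median 983) in the media libraries, without overlap (log2 difference of 1.03 ± 0.09 (SE), adjusted p = 1.0e-06). SLC1A4 and SLC1A5, carriers of neutral amino acids, rose by 1.09 ± 0.07 and 0.60 ± 0.06 (adjusted p = 2.7e-08 and 1.5e-06). The plots of values by library show these genes side by side.

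**Figure D1:**
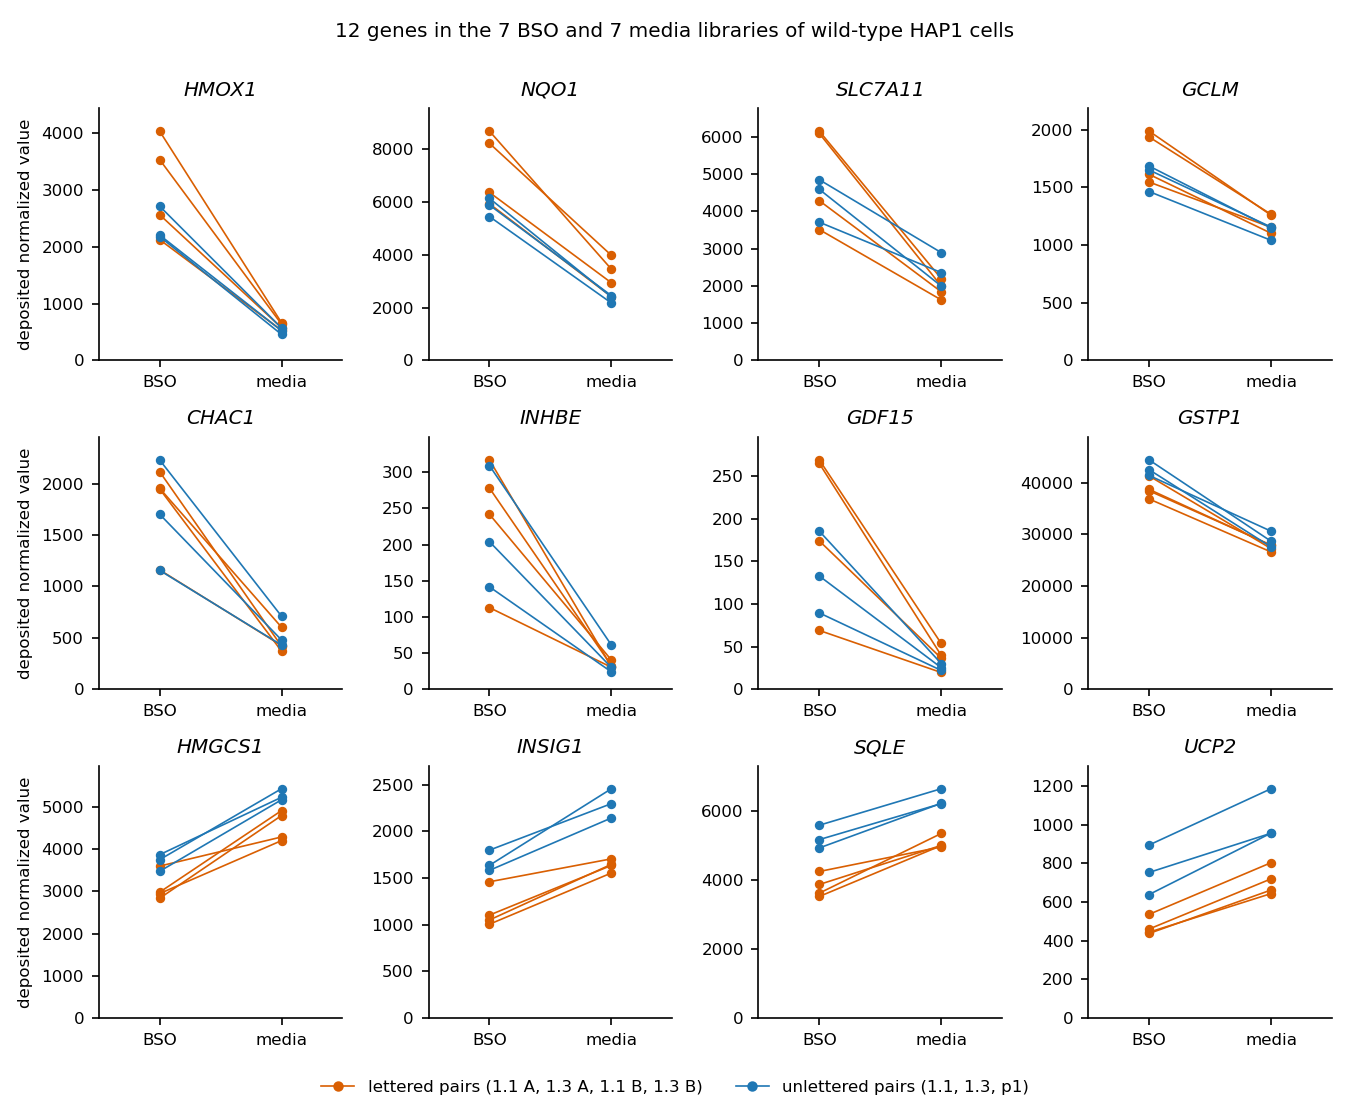
Deposited normalized values (y axis, linear from 0) of 12 genes in the BSO (left) and media (right) libraries of wild-type cells, with a line joining each pair, orange for the 4 lettered and blue for the 3 unlettered pairs. All 7 lines run the same way in each panel: HMOX1, NQO1, SLC7A11, GCLM, CHAC1, INHBE, GDF15 and GSTP1 were higher and HMGCS1, INSIG1, SQLE and UCP2 lower in the BSO library of every pair.

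Of 27 genes that use or recycle glutathione, 8 were higher (6 in all 7 pairs) and none lower, with a median log2 difference of 0.12. Without the unlettered pairs 1.1 and 1.3 the counts were 4 higher and 1 lower, and in the lettered libraries alone 3 higher and 1 lower. Removing a trend on exon length from each library left 8 higher and none lower. GSTP1, the abundant glutathione transferase, averaged 40503 ± 2635 in BSO against 28053 ± 1291 in media and did not overlap between groups (log2 difference of 0.53 ± 0.04 (SE), adjusted p = 1.2e-07). GSR, which reduces oxidised glutathione, rose by 0.27 ± 0.06 (adjusted p = 0.0049). GPX4, which reduces lipid hydroperoxides and restrains ferroptosis, averaged 6330.0 ± 184 in BSO against 5561 ± 619 in media. It was called higher by 0.19 ± 0.05 (adjusted p = 0.013), in 6 of 7 pairs, and was not called in the lettered libraries alone (log2 difference 0.10). GPX2, a peroxidase with low values here, lay between 14.7 and 75.0 (median 22.3) in the BSO libraries, against 7.67 to 12.6 (median 9.80) in the media libraries (log2 difference of 1.40 ± 0.27 (SE), adjusted p = 0.0022). Of 9 genes for the breakdown and export of glutathione, 1 was higher and none lower. That gene was CHAC1, the cytosolic enzyme that degrades glutathione and an ATF4 target. It lay between 1157 and 2232 (median 1950.1) in the BSO libraries, against 371 to 711 (median 429) in the media libraries, with no overlap (log2 difference of 1.82 ± 0.16 (SE), adjusted p = 1.0e-06).

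Of 38 NRF2 target genes tested, 30 were higher and none lower, with a median log2 difference of 0.49, and 28 were higher without the unlettered pairs 1.1 and 1.3, 23 in the lettered libraries alone and 27 in the unlettered libraries alone. HMOX1, heme oxygenase, had the lowest adjusted p of the named genes. It lay between 2126 and 4036 (median 2565) in the BSO libraries, against 457 to 664 (median 571) in the media libraries (log2 difference of 2.26 ± 0.11 (SE), adjusted p = 1.2e-09), and the groups did not overlap. NQO1, the quinone reductase used as a readout of NRF2, lay between 5452 and 8691 (median 6143) in the BSO libraries, against 2177 to 3984 (median 2455) in the media libraries (log2 difference of 1.25 ± 0.10 (SE), adjusted p = 4.3e-07). The lettered libraries had the highest NQO1 values under both conditions, and the pair differences ran from 1.05 to 1.35. OSGIN1, an oxidative-stress growth inhibitor, averaged 1546 ± 609 in BSO against 580.4 ± 207 in media (log2 difference 1.41 ± 0.14). TXNRD1, cytosolic thioredoxin reductase, averaged 14945 ± 2647 in BSO against 8762 ± 1362 in media and rose by 0.77 ± 0.11 (adjusted p = 1.5e-04). PRDX1, a peroxiredoxin that the thioredoxin system reduces, rose by 0.26 ± 0.05, and SRXN1, which repairs overoxidised peroxiredoxins, averaged 141 ± 31.9 in BSO against 120.3 ± 33.2 in media (log2 difference 0.24 ± 0.09, adjusted p = 0.094, and 0.039 with the replicate block).

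The aldo-keto reductases AKR1C1 and AKR1C3, NRF2 targets that reduce steroids and lipid aldehydes, had low values in media and a wide range in BSO. AKR1C1 lay between 66.9 and 569 (median 165) in the BSO libraries, against 28.2 to 49.0 (median 36.4) in the media libraries, with a log2 difference of 2.96 in the lettered and 1.39 in the unlettered pairs (adjusted p of the difference 0.13, and 0.027 with the replicate block). AKR1C3 averaged 73.7 ± 39.0 in BSO against 18.4 ± 7.89 in media (log2 difference 1.87 ± 0.17). Both share near-identical sequence with AKR1C2, which was not called (adjusted p = 0.12, and 0.041 with the replicate block), so how reads were divided among them is uncertain. NMRAL2P, a transcribed pseudogene known as an NRF2 target, lay between 6.88 and 48.3 (median 20.0) in the BSO libraries, against 0 to 4.05 (median 0.985) in the media libraries. Its media values were at the level of single reads, with 1 media library at 0.

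Of 17 genes of iron handling 8 were higher and 2 lower (6 and 2 without pairs 1.1 and 1.3), with a median log2 difference of 0.06, and 5 of the 17 were also on the NRF2 list. FTL and FTH1, the light and heavy chains of ferritin, averaged 33345 ± 10432 in BSO against 15421 ± 3824 in media and 21339.5 ± 6758 in BSO against 10653 ± 2738 in media. The log2 differences were 1.09 ± 0.12 for FTL and 0.99 ± 0.08 for FTH1 (adjusted p = 7.8e-06 and 6.8e-07), and neither overlapped between groups. Processed copies of both genes are scattered over the genome, so their counts may hold or lose shared reads. FECH, which inserts iron into heme, rose by 0.50 ± 0.04, and BLVRB, a biliverdin reductase, by 0.46 ± 0.06.

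The RNA of NRF2 and of its inhibitor was also higher. NFE2L2 averaged 2987 ± 137 in BSO against 2689 ± 152 in media (log2 difference of 0.15 ± 0.03 (SE), adjusted p = 0.0068), and KEAP1, its inhibitor, averaged 3894 ± 214 in BSO against 3444 ± 328 in media (log2 difference of 0.18 ± 0.04 (SE), adjusted p = 0.011). Of 11 regulators of the pathway, 7 were higher and 2 lower. The small MAF partners moved in different directions: MAFG and MAFF rose by 0.47 ± 0.05 and 0.35 ± 0.07, and MAFK fell by 0.26 ± 0.06 on the log2 scale (adjusted p = 0.0083). SQSTM1 (p62), the autophagy receptor that binds KEAP1, averaged 4981 ± 859 in BSO against 3299.9 ± 453 in media and rose by 0.59 ± 0.07. NFE2L1, the relative of NRF2 that drives proteasome genes, rose by 0.25 ± 0.04. Genes of the pentose phosphate pathway and NADPH supply, which feed glutathione reductase and thioredoxin reductase, were higher for 8 of 15 and lower for 2 (8 and 1 without pairs 1.1 and 1.3). The NRF2 list also held 5 of these 15 genes. TKT (transketolase) rose by 0.32 ± 0.04 and ME1, malic enzyme, by 0.43 ± 0.08.

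Promoter windows were available from RefSeq (GRCh38.p14, 250 bases before to 50 after a start site) for 78 of 103 named genes. The antioxidant response element, searched as TGACNNNGC on both strands, was in 13.3% of all 35116 windows. The 3 windows below belong to the modifier subunit of the enzyme that BSO blocks, a glutathione transferase and malic enzyme, all higher in every pair. Capitals mark matches to the element on either strand.
GCLM (chr1:93909381-93909680, minus strand): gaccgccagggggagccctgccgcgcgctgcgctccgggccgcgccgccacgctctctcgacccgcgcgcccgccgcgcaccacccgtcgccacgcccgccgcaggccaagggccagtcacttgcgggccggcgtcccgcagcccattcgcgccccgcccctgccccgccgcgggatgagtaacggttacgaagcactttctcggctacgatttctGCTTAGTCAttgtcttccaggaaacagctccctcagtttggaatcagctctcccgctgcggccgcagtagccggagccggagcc
GSTP1 (chr11:67583562-67583861, plus strand): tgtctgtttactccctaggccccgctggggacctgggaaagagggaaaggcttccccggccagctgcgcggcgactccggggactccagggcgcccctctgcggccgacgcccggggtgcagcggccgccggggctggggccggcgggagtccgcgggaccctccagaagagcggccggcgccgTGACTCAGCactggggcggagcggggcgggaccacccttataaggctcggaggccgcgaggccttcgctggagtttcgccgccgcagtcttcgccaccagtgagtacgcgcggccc
ME1 (chr6:83431002-83431301, minus strand): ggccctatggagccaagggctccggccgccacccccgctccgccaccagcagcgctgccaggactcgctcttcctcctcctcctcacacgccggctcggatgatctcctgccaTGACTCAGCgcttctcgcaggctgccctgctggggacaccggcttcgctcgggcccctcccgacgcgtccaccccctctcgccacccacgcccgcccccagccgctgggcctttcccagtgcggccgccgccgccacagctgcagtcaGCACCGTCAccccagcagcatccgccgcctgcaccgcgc
A match is a description of letters and not a bound site. NQO1, OSGIN1, FTL, GCLC and AKR1C1 rose without the element in their windows. HMGCS1, which fell, had 2 matches in the window chr5:43313132-43313431 and none in the window chr5:43313363-43313662. IQCH and NHS, which also fell, had matches too, NHS only in its window chrX:17374950-17375249. In all, 24 of the 78 genes had this element or the amino acid response element described below.

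Of 38 ATF4 target genes tested, 36 were higher and none lower, with a median log2 difference of 0.64. The number was 35 without the unlettered pairs 1.1 and 1.3, 33 in the lettered libraries alone and 31 in the unlettered libraries alone. ATF4 itself averaged 22042 ± 1955 in BSO against 15273 ± 834 in media (log2 difference of 0.53 ± 0.05 (SE), adjusted p = 1.5e-06). DDIT3 (CHOP), its target and partner, averaged 669 ± 138 in BSO against 281 ± 45.9 in media (log2 difference 1.24 ± 0.12), and ATF3, another factor of the response, averaged 737 ± 92.2 in BSO against 485 ± 49.0 in media (log2 difference 0.60 ± 0.08). INHBE, a secreted activin subunit, lay between 113 and 317 (median 242) in the BSO libraries, against 24.0 to 61.2 (median 31.4) in the media libraries, with no overlap (log2 difference of 2.62 ± 0.23 (SE), adjusted p = 1.0e-06). GDF15, a secreted stress hormone, lay between 68.9 and 269 (median 174) in the BSO libraries, against 19.6 to 53.6 (median 30.1) in the media libraries (log2 difference of 2.27 ± 0.27 (SE), adjusted p = 2.0e-05). NUPR1, a small stress-induced nuclear protein, lay between 21.6 and 94.8 (median 36.7) in the BSO libraries, against 1.94 to 11.3 (median 4.92) in the media libraries. ADM2, a peptide hormone, averaged 1088 ± 328 in BSO against 363 ± 45.9 in media. The log2 differences of NUPR1 and ADM2 were 2.86 ± 0.35 and 1.53 ± 0.14, and in all 4 of these genes every BSO library exceeded every media library. DDIT4 and SESN2, which restrain the growth kinase mTORC1, rose by 1.65 ± 0.16 and 1.08 ± 0.10.

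Of 20 genes of the serine, folate and methionine cycle, 7 were higher and 1 lower (6 and 0 without pairs 1.1 and 1.3), with a median log2 difference of 0.04, and 7 of the 20 were on the ATF4 list. PHGDH and PSAT1, the first enzymes of serine synthesis, averaged 12536 ± 1315 in BSO against 7819.6 ± 439.7 in media and 16591 ± 2933 in BSO against 9137 ± 1464 in media (log2 differences 0.68 ± 0.06 and 0.86 ± 0.08). SHMT2, which moves the one-carbon unit of serine to folate in mitochondria, rose by 0.55 ± 0.06. ASNS, asparagine synthetase, averaged 135 ± 39.5 in BSO against 64.0 ± 11.4 in media and rose by 1.02 ± 0.17 (adjusted p = 7.2e-04). Of 20 aminoacyl-tRNA synthetases 11 were higher, none lower and 9 not called (10 higher without pairs 1.1 and 1.3), and 5 of the 20 were on the ATF4 list. Those that rose included WARS1, SARS1 and GARS1, with log2 differences of 0.57, 0.55 and 0.55. The unfolded protein response is driven from the endoplasmic reticulum and shares DDIT3 with the ATF4 programme. In its list 4 of 24 genes were higher and none lower, also without pairs 1.1 and 1.3. The median log2 difference over the 24 was 0.04, and 7.64% of all genes tested were higher. HERPUD1, of endoplasmic-reticulum-associated degradation, rose by 0.78 ± 0.06 and the transcription factor XBP1 by 0.46 ± 0.05. The chaperone HSPA5 (BiP) averaged 17702 ± 4814 in BSO against 18157 ± 4104 in media (log2 difference -0.05 ± 0.05, adjusted p = 0.53).

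The amino acid response element, searched as TGATGNAA on both strands, was in 3.62% of the 35116 windows. It is shown in the windows of the glutathione-degrading enzyme, a neutral amino acid carrier and asparagine synthetase, and, together with an antioxidant response element, in that of the heavy chain of system xc-. Capitals mark the matches on either strand, to TGATGNAA in all 4 windows and also to TGACNNNGC in SLC3A2.
CHAC1 (chr15:40953221-40953520, plus strand): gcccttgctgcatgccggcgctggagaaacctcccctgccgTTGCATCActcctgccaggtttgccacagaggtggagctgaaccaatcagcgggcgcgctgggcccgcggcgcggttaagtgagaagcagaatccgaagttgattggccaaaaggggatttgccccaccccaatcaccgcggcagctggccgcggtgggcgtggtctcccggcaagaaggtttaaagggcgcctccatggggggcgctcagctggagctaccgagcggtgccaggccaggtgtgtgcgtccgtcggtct
SLC1A4 (chr2:64989149-64989448, plus strand): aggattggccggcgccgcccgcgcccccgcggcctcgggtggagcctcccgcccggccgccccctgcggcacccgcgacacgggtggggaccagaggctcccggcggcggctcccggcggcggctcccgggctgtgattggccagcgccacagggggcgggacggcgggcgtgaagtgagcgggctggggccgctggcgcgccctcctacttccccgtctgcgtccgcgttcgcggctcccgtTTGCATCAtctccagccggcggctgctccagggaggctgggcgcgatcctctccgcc
ASNS (chr7:97872359-97872658, minus strand): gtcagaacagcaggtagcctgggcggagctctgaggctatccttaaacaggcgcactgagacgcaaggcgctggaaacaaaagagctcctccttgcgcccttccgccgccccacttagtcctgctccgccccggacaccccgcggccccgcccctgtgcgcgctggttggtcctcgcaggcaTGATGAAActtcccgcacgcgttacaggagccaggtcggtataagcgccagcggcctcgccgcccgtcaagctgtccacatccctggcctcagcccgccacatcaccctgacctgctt
SLC3A2 (chr11:62881449-62881748, plus strand): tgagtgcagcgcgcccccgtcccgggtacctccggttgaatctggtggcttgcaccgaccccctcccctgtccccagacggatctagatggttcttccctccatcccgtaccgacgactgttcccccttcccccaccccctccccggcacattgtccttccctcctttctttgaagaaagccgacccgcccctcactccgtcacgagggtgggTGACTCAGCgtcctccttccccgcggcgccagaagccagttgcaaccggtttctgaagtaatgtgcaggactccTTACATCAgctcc
ASNS, SLC1A4 and SLC3A2 also had windows at other start sites, which held neither element. GDF15 and DDIT3, which also rose, had neither element in their windows.

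**Figure D2:**
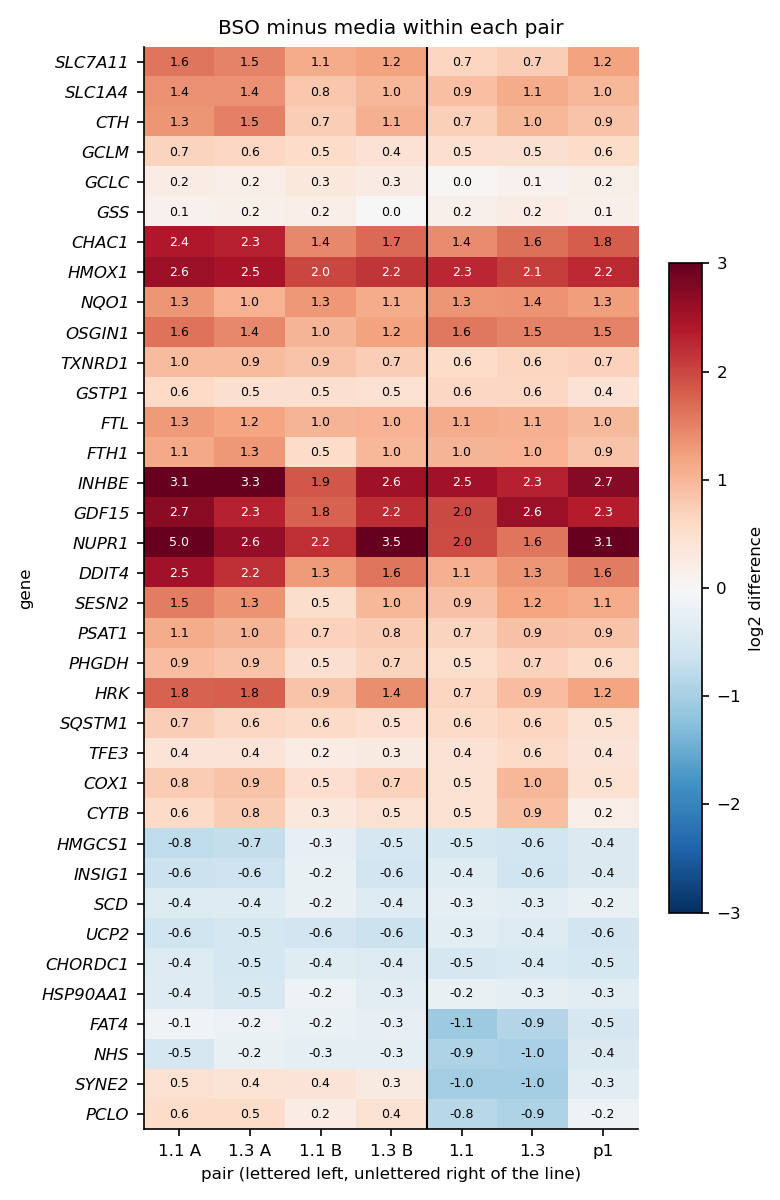
Log2 difference, BSO minus media, of log2(value + 1) in each of the 7 pairs (columns, lettered pairs left of the line) for 36 genes (rows), red for higher and blue for lower in BSO. Rows down to CYTB are higher and those from HMGCS1 to NHS lower in all pairs, while SYNE2 and PCLO are higher in the lettered and lower in the unlettered pairs.

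Of 28 genes of cell death 4 were higher and none lower (5 higher without pairs 1.1 and 1.3), against 7.64% higher and 6.39% lower over all genes tested. The median log2 difference of the 28 was 0.0084, with 15 above 0 and 13 below, so the list as a whole did not move. HRK, a BH3-only protein of the BCL2 family, lay between 173 and 324 (median 275) in the BSO libraries, against 81.5 to 162 (median 103) in the media libraries, without overlap (log2 difference of 1.23 ± 0.15 (SE), adjusted p = 2.2e-05). The BH3-only genes PMAIP1 (NOXA) and BBC3 (PUMA) rose by 0.53 ± 0.05 and 0.46 ± 0.07, and the pore former BAX by 0.20 ± 0.04. Of 22 p53 targets 7 were higher and none lower, GDF15, BBC3 and BAX included. Without pairs 1.1 and 1.3, which carry a trend with exon length described below, 3 were higher, in the lettered libraries alone 2 and in the unlettered libraries alone 7. With all 7 pairs kept and that trend removed from each library, 6 were higher. GADD45A, a growth arrest gene, averaged 375 ± 90.4 in BSO against 232 ± 33.4 in media (log2 difference 0.66 ± 0.13), and CDKN1A (p21) 369 ± 129.9 in BSO against 263 ± 66.1 in media (log2 difference 0.45 ± 0.11, adjusted p = 0.013, and not called in the lettered libraries alone).

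Lysosome and autophagy genes were higher for 17 of 28 (14 in all 7 pairs), with none lower and a median log2 difference of 0.22 (14 higher without pairs 1.1 and 1.3). TFE3, a transcription factor of lysosome genes, averaged 5022 ± 336 in BSO against 3886 ± 495 in media, and FLCN, which restrains TFE3, 878 ± 249 in BSO against 629 ± 163 in media (log2 differences 0.38 ± 0.04 and 0.47 ± 0.06). NEU1, a lysosomal sialidase, rose by 0.44 ± 0.05, and GPNMB, a lysosomal membrane glycoprotein, by 0.51 ± 0.11. Of the 13 mitochondrially encoded genes 8 were higher and none lower, with a median log2 difference of 0.40 that ran from 0.12 in pair 1.1 B to 0.81 in pair 1.3, and 7 were higher without pairs 1.1 and 1.3. COX1, a subunit of cytochrome oxidase, averaged 195926 ± 33992 in BSO against 121465 ± 10464 in media, and CYTB, of complex III, 64387 ± 11959 in BSO against 44654 ± 6556 in media (log2 differences 0.68 ± 0.09 and 0.52 ± 0.08). Nuclear genes for subunits of the respiratory chain were higher for 5 of 57 and lower for none, against 7.64% higher and 6.39% lower over all genes tested. Without pairs 1.1 and 1.3 these nuclear genes were higher for 1 and lower for 2.

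Cholesterol synthesis had the lowest median of the 41 lists. Of 24 genes of the pathway and its factor SREBP2, 13 were lower and none higher, with a median log2 difference of -0.26. Without the unlettered pairs 1.1 and 1.3 the count was 15 lower, in the lettered libraries alone 13, and in the unlettered libraries alone 6. HMGCS1, which makes the substrate of HMG-CoA reductase, lay between 2835 and 3866 (median 3472) in the BSO libraries, against 4199 to 5427 (median 4909.6) in the media libraries, without overlap (log2 difference of -0.54 ± 0.05 (SE), adjusted p = 1.9e-06). INSIG1, the sterol-sensing retention factor of the pathway, lay between 1005 and 1798 (median 1459) in the BSO libraries, against 1553 to 2456 (median 1705) in the media libraries (log2 difference of -0.49 ± 0.07 (SE), adjusted p = 9.3e-05). Its unlettered libraries were above its lettered ones under both conditions, and the BSO library was lower within each pair. The sterol enzymes MSMO1 and SQLE had log2 differences of -0.40 ± 0.06 and -0.36 ± 0.05. Of 15 genes of fatty acid synthesis 6 were lower and none higher, also without pairs 1.1 and 1.3. SCD, the desaturase, FASN, fatty acid synthase, and ACSL4, which activates polyunsaturated fatty acids and promotes ferroptosis, had log2 differences of -0.32 ± 0.04, -0.30 ± 0.05 and -0.32 ± 0.06 (adjusted p = 6.3e-05, 4.4e-04 and 0.0025). PNPLA3, a lipid droplet protein and lipogenic target, averaged 148 ± 36.1 in BSO against 211 ± 43.3 in media (log2 difference -0.51 ± 0.14).

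UCP2, an inner mitochondrial membrane carrier linked to lower superoxide production, lay between 438 and 895 (median 536) in the BSO libraries, against 644 to 1186 (median 803) in the media libraries (log2 difference of -0.53 ± 0.08 (SE), adjusted p = 2.6e-04). The groups overlapped, the unlettered libraries lay above the lettered ones under each condition, and the BSO library was lower in 7 of 7 pairs. It was the 1 gene called among 7 for removal of superoxide and hydrogen peroxide, and none was higher.

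Several cytosolic chaperones fell: 7 of 21 heat shock genes were lower (5 in all 7 pairs) and 1 higher. The number lower was 13 with the replicate block and 9 without pairs 1.1 and 1.3. HSPA8, the constitutive HSP70, averaged 83692 ± 14676 in BSO against 106550.0 ± 13308 in media, and HSP90AA1, inducible HSP90, 71834 ± 12149 in BSO against 89612 ± 13365 in media. Their log2 differences were -0.36 ± 0.09 and -0.32 ± 0.04 (adjusted p = 0.015 and 1.2e-04). HSPH1, an exchange factor of HSP70, and CHORDC1, an HSP90 partner, had log2 differences of -0.39 ± 0.07 and -0.46 ± 0.06, and CHORDC1 did not overlap between groups. DNAJB4, a co-chaperone, was the 1 that rose, by 0.50 ± 0.09.

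**Figure D3:**
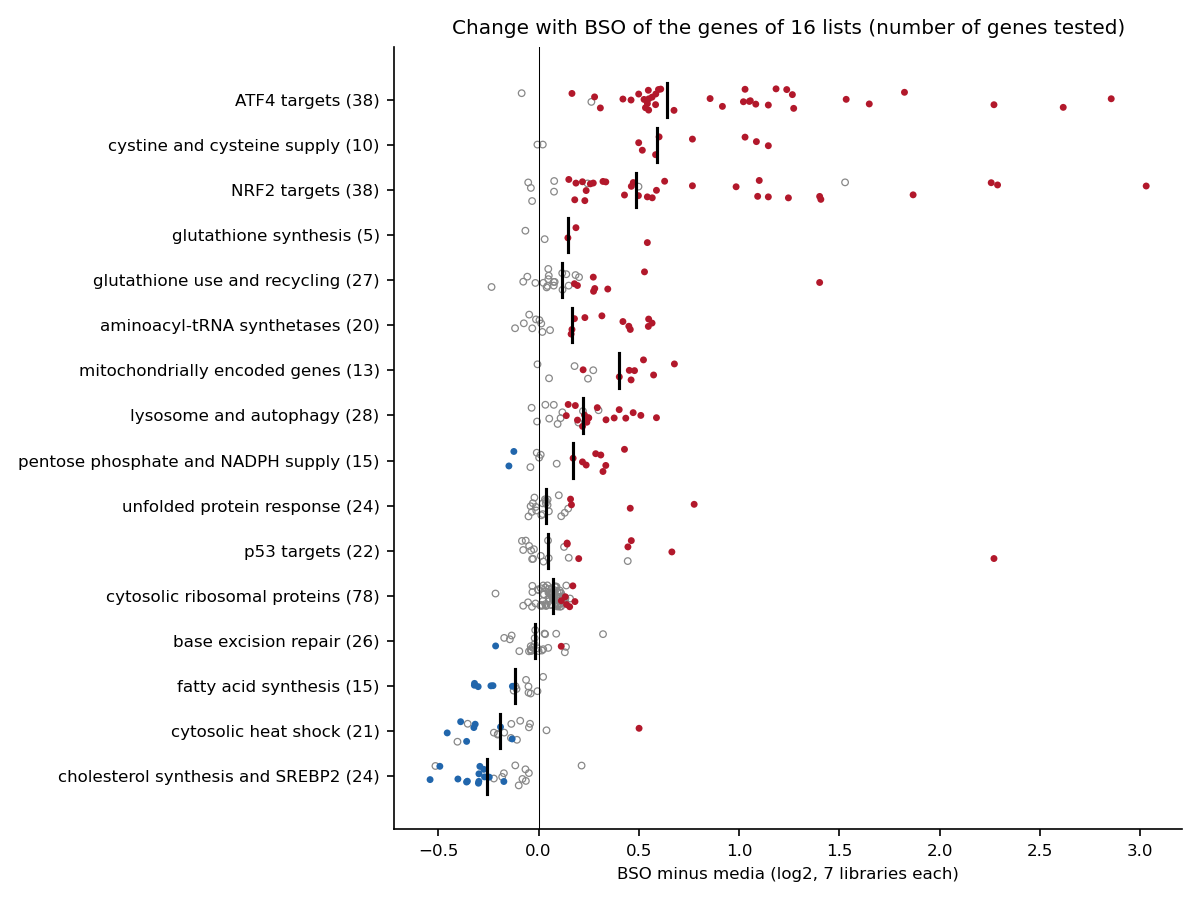
Log2 difference, BSO minus media (x axis), of each tested gene of 16 lists (rows, with the number of genes), red where called higher, blue where called lower and open grey where not called, with a black bar at each list's median. The medians run from 0.64 for ATF4 targets to -0.26 for cholesterol synthesis and SREBP2.

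Among the 15 largest rises, 6 genes belonged to none of the lists. ECM2, an extracellular matrix protein gene, lay between 133 and 258 (median 224) in the BSO libraries, against 17.2 to 34.5 (median 27.6) in the media libraries, with no overlap (log2 difference of 2.78 ± 0.16 (SE), adjusted p = 1.1e-08). BEST1, a calcium-activated anion channel, lay between 24.6 and 79.5 in the BSO libraries, against 8.75 to 18.2 in the media libraries (log2 difference 1.92 ± 0.18). RAPGEF3, an exchange factor activated by cyclic AMP, averaged 63.7 ± 32.9 in BSO against 19.1 ± 6.77 in media (log2 difference 1.57 ± 0.22). ARHGAP9, a GTPase-activating protein, averaged 72.1 ± 41.0 in BSO against 15.6 ± 8.64 in media (log2 difference 2.06 ± 0.33), and MYH15, a myosin heavy chain gene, 133 ± 85.3 in BSO against 36.6 ± 17.6 in media (log2 difference 1.69 ± 0.32). In GENCODE 29, 4 of these genes overlap a gene on the opposite strand: ARHGAP9 and the tRNA synthetase gene MARS1, BEST1 and the ferritin gene FTH1, RAPGEF3 and SLC48A1, and ECM2 and CENPP. The strand setting of the counting is not given, so reads of the partners cannot be told apart. MTND4P12, a nuclear copy of mitochondrial ND4, lay between 86.5 and 639.8 (median 139.7) in the BSO libraries, against 51.2 to 89.2 (median 75.8) in the media libraries and may share reads with the mitochondrial gene, which also rose. Of the 15 rises 11 did not overlap between groups, against 1.40% of all genes lying wholly higher in BSO. The 15 were picked by size and direction from the same values, which favours a lack of overlap. In 12 of 15 the largest pair difference was in pair 1.1 A (7 genes) or 1.3 A (5 genes).

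The 15 largest falls were smaller, from -0.63 to -0.46 on the log2 scale. Of these falls, picked in the same way, 4 did not overlap between groups, against 0.497% of all genes lying wholly lower in BSO. Beside the sterol and chaperone genes they held non-coding transcripts: SNORA73B, a small nucleolar RNA that lies within RCC1 and SNHG3, averaged 55.0 ± 19.3 in BSO against 88.4 ± 39.6 in media, SNHG5, a snoRNA host gene, 209.6 ± 54.1 in BSO against 295 ± 34.3 in media, and PURPL, a p53-induced long non-coding RNA, 263 ± 46.5 in BSO against 376 ± 45.5 in media. UBE2Q2P1, a pseudogene, and IQCH had log2 differences of -0.53 ± 0.14 and -0.50 ± 0.12, and DPP4, a cell-surface dipeptidase, -0.49 ± 0.13. NHS, a regulator of actin and cell shape, and the giant cadherins FAT4 and DCHS2 had log2 differences of -0.52 ± 0.09, -0.46 ± 0.10 and -0.51 ± 0.11. These 3 genes have summed exon lengths of 10394 to 20429 bases. In FAT4 the difference was -0.18 in the lettered and -0.83 in the unlettered pairs, and these changes differed (limma adjusted p = 0.028). MKI67, a marker of proliferating cells with 12807 bases of exon, averaged 18696 ± 4034 in BSO against 22673 ± 1327 in media and differed by -0.08 in the lettered and -0.61 in the unlettered pairs.

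Each label set was also tested alone. The 4 lettered pairs gave 458 genes higher and 303 lower, and the 3 unlettered pairs 542 higher and 547 lower. Of the genes that were higher, 213 were called in both sets, 46.5% of the lettered and 39.3% of the unlettered calls. Of those lower, 44 were called in both sets, 14.5% of the lettered and 8.04% of the unlettered calls. In 8 genes the sets were both called and opposite in direction.

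**Figure D4:**
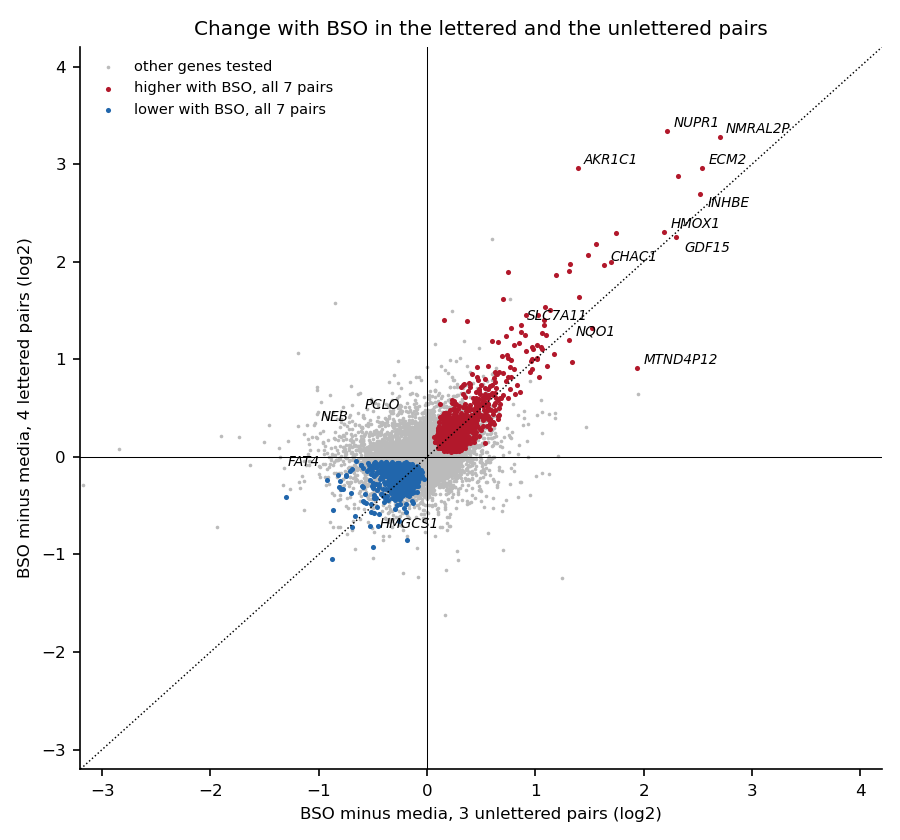
Log2 difference, BSO minus media, of 14290 genes in the 4 lettered pairs (y axis) and the 3 unlettered pairs (x axis), red for the 900 called higher and blue for the 718 called lower in all 7 pairs, grey for the rest, with the dotted line at equal change. The large rises lie near the line, with AKR1C1 and NUPR1 above it and MTND4P12 below it, while NEB and PCLO are higher in the lettered and lower in the unlettered pairs.

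The difference between the sets was tested as the change in the lettered minus that in the unlettered pairs. It was positive for 90 genes (0.630%) and negative for 1 (0.00700%) at an adjusted p below 0.05. All 90 were lower in BSO in the unlettered pairs. Their median summed exon length was 16716 bases against 5060.0 over the tested genes with a length (92.8% of them), and 88 of the 90 were longer than that median. SYNE2, a giant protein of the nuclear envelope, differed by 0.39 in the lettered and -0.79 in the unlettered pairs (difference 1.18 ± 0.17). PCLO, a large scaffold of synapses, differed by 0.45 in the lettered and -0.64 in the unlettered pairs, and NEB, the giant muscle protein nebulin, by 0.33 in the lettered and -1.04 in the unlettered pairs. TUBA1C, an alpha-tubulin, was the 1 gene with a negative difference, -0.31, with -0.19 in the lettered and 0.12 in the unlettered pairs. The count depended on single libraries: without any 1 of 10 libraries (every one but BSO p1 and 1.1 B and media p1 and 1.3 A) 28 to 59 differences were positive, and without media p1 592 were positive and 528 negative. Removing a trend on exon length from each library left 22 positive and 3 negative.

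By pair, a steady fall of the change with length was seen in pairs 1.1 and 1.3 and not in the other 5. The median log2 difference ran from 0.15 in the fifth of genes with the shortest exons to -0.16 in the fifth with the longest in pair 1.1, and from 0.16 to -0.12 in pair 1.3. In pair p1 and the 4 lettered pairs all such medians lay between -0.02 and 0.02. Whether RNA quality or the library preparation moved with these pairs was not tested. HMOX1 differed by 2.31 in the lettered and 2.19 in the unlettered pairs, and NQO1 by 1.20 in the lettered and 1.31 in the unlettered pairs. Without pairs 1.1 and 1.3 the test called 718 genes higher and 545 lower.

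**Figure D5:**
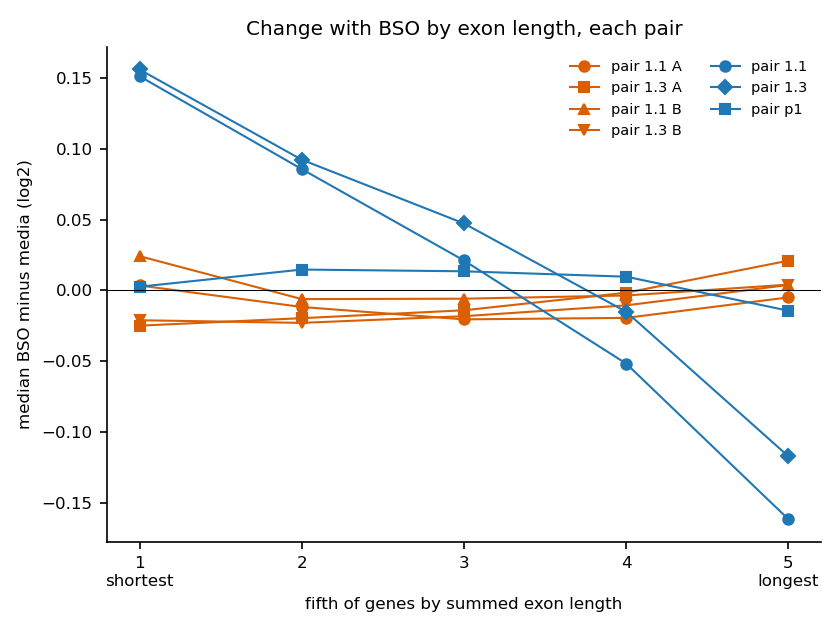
Median log2 difference, BSO minus media (y axis), in 5 equal groups of genes by summed exon length (x axis, shortest at the left), 1 line for each pair, orange for lettered and blue for unlettered pairs. Pairs 1.1 and 1.3 fall from 0.15 and 0.16 to -0.16 and -0.12, and the other 5 pairs stay between -0.02 and 0.02.

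The NEIL glycosylases, whose loss the rest of the series studies, were not called in wild-type cells. NEIL1 lay between 293 and 931 (median 783) in the BSO libraries, against 309.6 to 975 (median 774) in the media libraries (log2 difference -0.04 ± 0.08, adjusted p = 0.8). NEIL2 and NEIL3 averaged 435 ± 97.9 in BSO against 463 ± 94.4 in media and 663 ± 33.0 in BSO against 678 ± 54.6 in media (adjusted p = 0.31 and 0.7). Of 26 genes of base excision repair 1 was higher and 1 lower (0 and 2 without pairs 1.1 and 1.3, and 3 and 2 with the replicate block). Over all genes tested the shares higher and lower were 7.64% and 6.39%. LIG3, the ligase of nuclear and mitochondrial repair, averaged 1831 ± 79.5 in BSO against 2126 ± 147 in media (log2 difference -0.21 ± 0.04), and the replicative ligase LIG1 rose by 0.11 ± 0.04 (adjusted p = 0.045), a call that ended when any of 11 single libraries was left out.

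The change with BSO in wild-type cells was set against that in each knockout, which had its own media controls. The neil1 and neil2 libraries were all unlettered and those of neil3 and the triple knockout all lettered, while the wild-type change pooled both sets, so genotype and label set cannot be told apart in these comparisons. In the fit of all 42 libraries no gene of 14290 differed in its change at an adjusted p below 0.05 (limma). At an unadjusted p below 0.05 the numbers were 136 for neil1, 663 for neil2, 377 for neil3 and 498 for the triple knockout. Each number is below a share of 0.05 of the genes tested, the share that such a threshold gives when no gene differs. HMOX1 changed by 2.26 in wild-type cells and by 2.14, 1.58, 2.35 and 2.38 in neil1, neil2, neil3 and triple knockout cells. GCLM changed by 0.54 in wild-type cells and by 0.53, 0.56, 0.62 and 0.87 in the same order of knockouts, and CHAC1 by 1.82 in wild-type cells and by 1.47, 1.38, 2.09 and 1.74. HMGCS1 changed by -0.54 in wild-type cells and by -0.59, -0.34, -0.53 and -0.32. None of these differences in change was called, which does not show that the genotypes respond alike. This comparison was added after the data were seen.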

How the data were processed

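RNA levels came from 1 deposited table of 42 libraries. The deposited unit is a normalized signal. The submitters' processing notes name Trim Galore, HISAT2, SAMtools, featureCounts, DESeq2 and the builds GRCh38 and hg38. Their versions and roles, and the strand setting, were not stated in any source used here. Of 30182 entries, the 9667 without a gene symbol (0.868% to 1.25% of reads) were left out.

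The 14290 genes whose mean over the 14 wild-type libraries reached 10 were tested as log2(value + 1) in limma 3.58.1 (R 4.3.3) with an intensity trend and the label set as a covariate, and p-values were adjusted over all genes tested (Benjamini-Hochberg). The pseudocount understates changes of low genes. The change in lettered minus unlettered pairs was an interaction term. The fits were tested on simulated data. Dividing by the smallest step gave whole reads for 100% of values (relative tolerance 1e-06), used for depth and, as alternatives, for edgeR 4.0.16 and DESeq2 1.42.0. In wild-type cells the edgeR test on those reads called 1022 genes higher and 1062 lower. Libraries of 1 group differed by more than sampling of reads gives (chi-square over its degrees of freedom, 2.85 to 19.4 within a label set and up to 48.7 across the sets).

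Names paired the libraries: the deviations of each BSO library and its own media library correlated at 0.19 to 0.41 in all 7 pairs. Named genes were the 15 largest rises and falls (called, higher group averaging at least 50, 1 direction in all pairs, no clone identifiers), up to 5 called genes of each of 41 lists, 16 listed genes and the 6 largest label set differences of each sign. SLC3A2, ATF4, DDIT3, ASNS and HSPA5 were added after their values were seen. Some genes that the rule names are not reported here. Members and lists were chosen with earlier results of these data known. Exon lengths were unions of GENCODE 29 exons. Python 3.11.15 computed the summaries.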

Additional observations from a re-analysis of the deposited data

Results flagged for a closer look

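In 4 of 226 groups of 7 libraries examined, over 113 named genes, the highest or lowest library stood apart by Dixon's test. Chance flags about 1 group in 20. BSO library 1.3 had the highest COX1, 266818, and the highest CYTB, 91035, the mitochondrially encoded genes that also had their largest pair differences there. ATF3 was lowest in BSO library 1.1 B, at 539, and IQCH highest in media library 1.3, at 119.5.

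In 7 genes named for the size of this difference, the change with BSO differed between the lettered and the unlettered pairs. The lettered minus the unlettered log2 difference is given here. It was 1.37 for NEB, 1.18 for SYNE2, 1.13 for CCDC144A, 1.08 for PCLO, 1.07 for TSSK4, 0.93 for GOLGA6L9 and -0.31 for TUBA1C. Their limma adjusted p ran from 0.0031 to 0.043. FAT4, named among the falls, was also called, with a difference of 0.64 (limma adjusted p = 0.028). With pairs 1.1 and 1.3 left out, which leaves 1 unlettered pair against 4 lettered ones, none of these was called.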

How the results depend on the processing

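The main counts were 1092 genes higher and 913 lower, and 900 and 718 in all pairs. With the replicate block, fitted because the names pair the libraries, 1562 were higher and 1423 lower; beyond the counts given elsewhere it gave a call to SRXN1 and AKR1C2, and to the label set difference of AKR1C1, SLC7A11, TXNRD1, NHS and PURPL. Without the label set term the counts were 286 and 81 (275 and 80 in all pairs). The lettered libraries alone gave 458 and 303 (455 and 303 in all 4 pairs), the unlettered alone 542 and 547 (542 higher in all 3), and pairs 1.1 and 1.3 left out, chosen after seeing the data, 718 and 545. Leaving out each library in turn gave 810 to 1145 higher and 609 to 988 lower, and 725 to 1024 and 535 to 858 in all pairs; BSO 1.1 A gave the lowest and media 1.1 B the highest. The other settings (pseudocounts, filters, scalings, all 42 libraries, edgeR, DESeq2, removal of the length trend) stayed within 1.5 times.

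The label set difference, 90 positive and 1 negative, was 463 and 326 with the replicate block, 22 and 3 after removal of the length trend and 0 and 0 without pairs 1.1 and 1.3 (both chosen after seeing the data). Leaving out single libraries gave 28 to 592 positive and 0 to 528 negative: 29, 30, 59, 44 and 46 positive without BSO 1.1, 1.3, 1.1 A, 1.3 A and 1.3 B, 127 positive and 7 negative without BSO p1, 28, 29, 49, 54 and 56 positive without media 1.1, 1.3, 1.1 A, 1.1 B and 1.3 B, 2 negative without media 1.3 A, and 592 and 528 without media p1. The cause was not tested.

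Of 101 called named genes 99 kept their call without any single library and 57 under every alternative. Among named genes not called in the main test, HSPA5 reversed to 0.0142 in the unlettered libraries, NEIL1 to 0.0351 in the lettered and 0.00703 without media 1.3, and NEIL3 to 0.00268 in the lettered. Exon length was known for 33 of 38 ATF4 targets and no mitochondrially encoded gene, so removal of the length trend left those out. Depth limits genes of single-read level in media such as NMRAL2P, and genes of low values such as GPX2.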

Other observations

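Of 20 thioredoxin and peroxiredoxin genes 7 were higher and none lower (5 higher without pairs 1.1 and 1.3), among them TXNIP, the thioredoxin-binding arrestin, at 632 ± 45.6 in BSO against 463 ± 16.7 in media (log2 difference 0.45 ± 0.05). Of 9 metallothionein and zinc genes 2 were higher (5 higher and 1 lower with the replicate block), among them MT2A at 5566 ± 908 in BSO against 4128 ± 1035 in media (log2 difference 0.46 ± 0.11), whose near copies may share reads. Of 30 genes of glycolysis and hypoxia 10 were higher and 2 lower (5 and 1 without pairs 1.1 and 1.3, 9 and 2 after removal of the length trend). VEGFA, the vascular growth factor, averaged 2312 ± 579 in BSO against 1527 ± 276 in media (log2 difference 0.58 ± 0.06). Of 30 ferroptosis genes 10 were higher and 3 lower (7 and 3 without those pairs).

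Of all genes tested 7.64% were higher and 6.39% lower. Of 30 replication genes 4 were higher and 1 lower, CCND2 (cyclin D2) with the largest change of those (0.54 ± 0.12). Among 31 mitosis genes 1 was higher and 6 lower (1 and 3 in all 7 pairs). Cytosolic ribosomal proteins were higher for 6 of 78 and mitochondrial ones for 2 of 44, with 5 lower. Of 41 other DNA repair genes 1 was higher and 7 lower (1 and 4 in all 7 pairs). Among 25 interferon-stimulated genes 2 were higher and 2 lower (0 and 1 in all 7 pairs). The counts were 1 and 0 for 11 inflammatory genes and 5 and 1 for 30 immediate-early genes. Genes of TGF-beta and matrix were lower for 3 of 20, snoRNA hosts higher for 1 and lower for 3 of 15, and polyamine genes higher for 2 of 9. Of the marker lists, 1 of 8 neural genes was higher, SOX2 by 0.22 ± 0.05, and 1 of 5 blood cell and 1 of 7 mesenchymal genes were lower. Without pairs 1.1 and 1.3 the counts higher and lower were 1 and 1 for replication, 1 and 6 for mitosis, 1 and 0 for cytosolic and 0 and 4 for mitochondrial ribosomal proteins, 3 and 2 for other DNA repair, 1 and 1 for interferon-stimulated and 2 and 3 for immediate-early genes. With the replicate block they were 5 and 2 for replication, 6 and 6 for immediate-early, 2 and 3 for TGF-beta and matrix, 2 and 1 for polyamine, 0 and 3 for blood cell, 2 and 1 for mesenchymal and 2 and 1 for neural genes.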
